A study of Mus musculus with 17 samples.

Results

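The libraries described here come from the small intestine of Igha -/+ pups at day of life 24, an age at which mouse pups pass from milk to solid food. They compare 3 libraries from pups nursed by an IgA -/- dam (labelled as having no maternal IgA) with 2 from pups nursed by a C57BL/6 (B6) dam, 5 of the 17 libraries in the series. Members were chosen by the sample titles, and 10514 genes with a TPM (a read count corrected for gene length and library size) of at least 1 in at least 2 of the 5 libraries were tested. All pups had the C57BL/6 strain label and carried 1 working copy of Igha, the gene of the IgA heavy chain, so pups of either dam could make IgA themselves. Cells sorted as EpCAM+ CD45- Ter119- were flash frozen, and RNA was amplified with a low-input SMART-seq kit. The other groups used below are the same 2 kinds of dam at days of life 14 and 42, each with 3 libraries. Whether any pups were littermates is not in the labels, and every p-value below reflects variation between libraries that may be partly technical. If pups of a group shared a litter or dam, their libraries are not independent replicates of the dam. The p-values would then leave out variation between litters and dams. The sample descriptions hold number strings that read as dates and differ between the dams at day 24, and a letter, F or M, that follows the dam at every age. The labels explain neither, and anything they stand for cannot be told apart from the dam.

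IgA is the main antibody of milk and of the gut surface. Milk IgA binds bacteria in the lumen of the suckling pup until the pup's own plasma cells begin to secrete it. The epithelium beneath is renewed from stem cells at the crypt base, which give rise to absorptive enterocytes and to secretory Paneth, goblet, enteroendocrine and tuft cells, and several of these lineages are still maturing in mice around weaning.

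Recovered depth was 11569977 to 14007676 reads in the IgA -/- dam libraries and 17637915 and 16844966 in the B6 dam libraries (replicates 1 and 2). The epithelial markers Epcam (271 to 552 scaled TPM), Vil1 (121 to 431) and Cdh1 (119 to 157) were high in all 5 libraries, whereas Ptprc, the leukocyte marker CD45, was at most 0.324 and Igha at most 0.985. Pigr, the receptor that carries IgA into the lumen, overlapped between the dams (425 to 651). Scaled TPM is the deposited TPM divided by a median-of-ratios factor for each library. The factors were 0.477 to 0.717 with the IgA -/- dam and 1.08 and 0.671 with the B6 dam. A single gene, Gm23935, took 53.4% to 56.8% of deposited TPM with the IgA -/- dam and 58.9% and 61.9% with the B6 dam. Genes other than Gm23935 and the mitochondrial ones took 10.3% to 15.2% with the IgA -/- dam and 18.4% and 15.9% with the B6 dam. The part of these shares in the differences below was not tested. The 2 B6 dam libraries were the least alike of all 10 pairs (Spearman correlation over 10514 genes 0.845, against 0.901 to 0.939 among the IgA -/- dam libraries).

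No gene differed between the dams at day 24 past an adjusted p of 0.05 in limma, so that 0% of genes were called. At an unadjusted p under 0.05 there were 1189 genes, 397 higher and 792 lower with the IgA -/- dam. The smallest adjusted p was 0.083 (Gm22614, a predicted small nuclear RNA). With only the 5 day 24 libraries fitted, the unadjusted count was 319 or 329, depending on the scaling factors. It was 111 with library weights. The unadjusted counts given below for gene lists come from the fit over all groups. On TPM as deposited, without the scaling, 522 genes were called (4.96%), 10 higher and 512 lower, while the median log2 fold change was -0.48 across the genes tested, against -0.05 after scaling. The scaled count was 28 without B6 dam replicate 1, 5 without B6 dam replicate 2, and 2, 1 and 1 without IgA -/- dam replicates 1, 2 and 3. The groups did not overlap in 587 genes higher (5.58%) and 1098 genes lower (10.4%) with the IgA -/- dam. With a library left out, lack of overlap is more common among all genes: 8.33% higher and 15.3% lower without IgA -/- dam replicate 1, 10.3% and 18.8% without replicate 2, and 9.23% and 15.7% without replicate 3. The shares were 19.7% higher and 39.1% lower without B6 dam replicate 1 and 31.6% and 29.2% without B6 dam replicate 2. An exact permutation test of 3 against 2 libraries cannot give a p below 0.1.

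**Figure D1:**
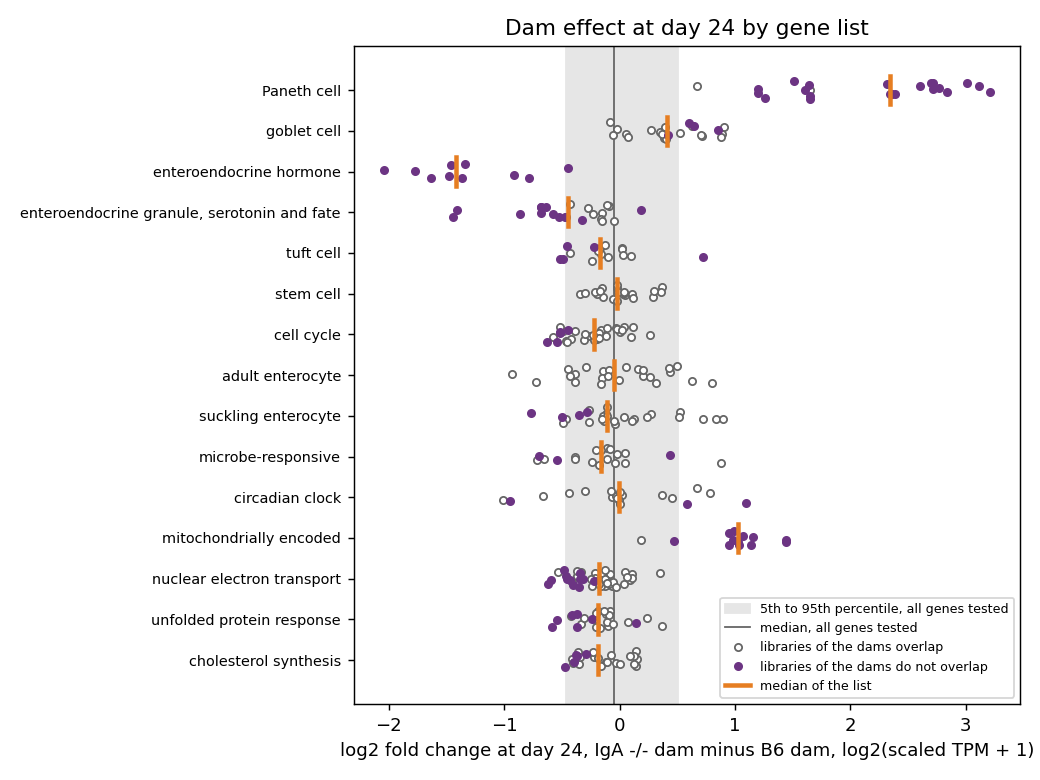
Log2 fold change at day 24 (IgA -/- dam minus B6 dam) for each tested member of 15 gene lists, with filled points where the libraries of the dams did not overlap and an orange bar at the list's median. Paneth cell genes (median 2.35) lie right of the grey band that spans the 5th to 95th percentile of all genes tested. Mitochondrially encoded genes lie between 0.19 and 1.44 (median 1.03). Enteroendocrine hormones other than Tac1 (-0.44) lie left of the band (median -1.42).

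Paneth cells sit at the crypt base and secrete defensins, lysozyme and lectins that act on bacteria. Their genes stood higher with the IgA -/- dam in level, without passing the adjusted test. Of 28 genes on the list, 24 were in the table and 23 were tested. In 21 of the 23 every IgA -/- dam library lay above both B6 dam libraries, against 5.58% of all genes, and 20 had an unadjusted p under 0.05 (3.78% of all genes). Because a gene can pass the filter through its high group alone, the 19 members that passed in both groups are the fairer count: 18 of these did not overlap, against 545 of 10158 such genes in all. The median log2 fold change of the 23 was 2.35, and it was 0.83 at day 14 and -0.90 at day 42.

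Ang4, an antimicrobial ribonuclease (chromosome 14, 51763878 to 51773590, GRCm38), was at 69.4, 133 and 44.5 scaled TPM in IgA -/- dam replicates 1, 2 and 3 and at 3.59 and 13.4 in B6 dam replicates 1 and 2. The difference was 3.21 on the log2(scaled TPM + 1) scale (SE 0.86, adjusted p = 0.221). All 3 IgA -/- dam libraries were higher, with replicate 2 the highest. Itln1, a lectin that binds microbial sugars (chromosome 1, 171518122 to 171535294), was at 748, 1230 and 467 against 125 and 164 (log2 difference 2.39, SE 0.65, adjusted p = 0.226). Lyz1, the Paneth lysozyme (chromosome 10, 117287797 to 117292868), was at 545, 958 and 360 against 60.8 and 122. The order of the libraries was thus the same for these 3 genes: IgA -/- dam replicate 2, then 1, then 3, then B6 dam replicate 2, then 1.

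Defa24 was the most abundant of the alpha-defensins, the pore-forming peptides of the granules, at 2083, 4214 and 1767 scaled TPM against 379 and 659 (log2 difference 2.32). Defa30 was at 527, 916 and 340 against 40.5 and 110, and Defa34 at 192, 254 and 78.4 against 18.4 and 26.4. Reads of these near-identical genes are hard to assign, so the split between members is uncertain. Mptx2, a pentraxin of Paneth cells, was at 71.4, 119 and 59.2 against 5.30 and 12.7 (log2 difference 3.12). Mmp7, the protease that activates mouse defensins, differed less, at 41.9, 95.5 and 37.6 against 23.6 and 21.7 (1.20), as did the phospholipase Pla2g2a (1.20). Nupr1 and Defa36 were the 2 tested members whose groups overlapped. Leaving out 1 library at a time left 21 to 23 members without overlap, against 8.33% to 31.6% of all genes higher. The medians ran from 1.94 (without IgA -/- dam replicate 2) to 2.67 (without B6 dam replicate 2). On TPM as deposited 18 members did not overlap, against 1.06% of all genes higher and 39.1% lower. In bulk RNA a larger number of Paneth cells and more RNA per Paneth cell cannot be told apart.

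**Figure D2:**
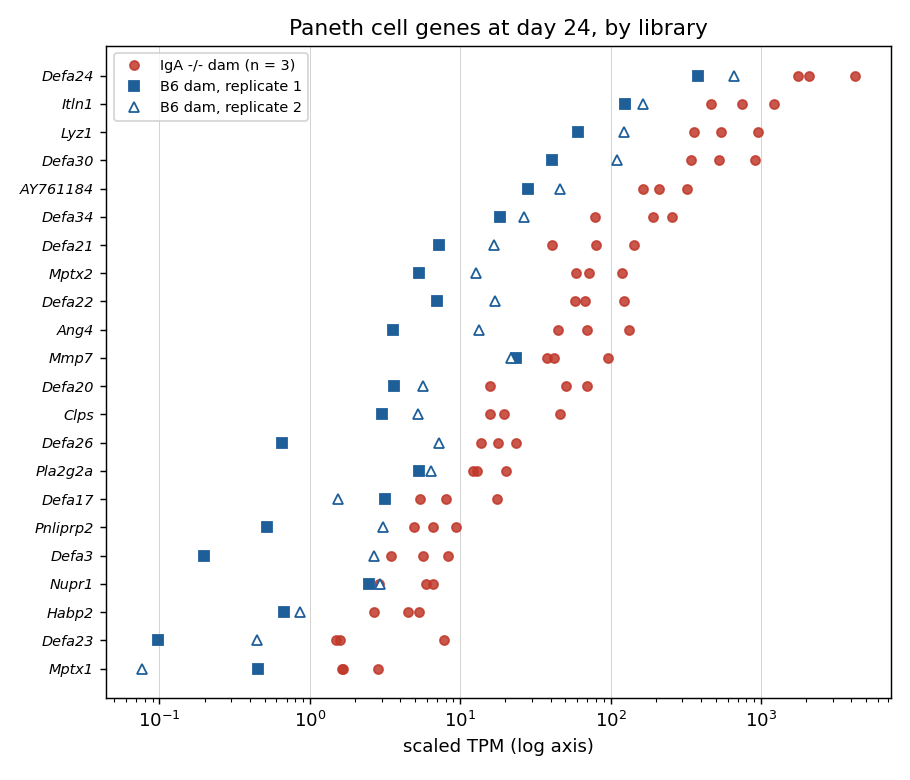
Scaled TPM (log axis) of the 22 Paneth cell genes with a value above 0 in every day 24 library, with 1 point per library, red for the IgA -/- dam and blue for the B6 dam (squares for replicate 1, open triangles for replicate 2). In every gene but Nupr1 the 3 red points lie to the right of both blue ones, from 1767 to 4214 against 379 and 659 for Defa24.

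IgA -/- dam replicate 2, the library with the highest Paneth sum, also had the highest sums of erythroid and T cell markers. The summed level of 7 erythroid markers was 67.3 scaled TPM there and 0.614 to 3.31 in the other 4 libraries. The 22 T cell and intraepithelial lymphocyte markers summed to 46.7 there, to 12.1 and 18.6 in IgA -/- dam replicates 1 and 3, and to 6.43 and 24.24 in the B6 dam libraries. No marker of either list was at 0 in all 5 libraries, and the sort was meant to remove both kinds of cell. The same library had Ptprc at 0.324. With that library left out, 21 of 23 Paneth members were higher without overlap, against 10.3% of all genes. The part of erythroid and T cells in the Paneth values was not tested.

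The promoters of 2 defensins are shown because alpha-defensins were the most abundant Paneth transcripts and both promoters hold the motifs counted here. Each covers 250 bases before to 50 after the gene's start (RefSeq, GRCm38.p6), and capitals mark CTTTGAT, the core letters bound by the TCF factors of Wnt signalling, on either strand, and TATAAA, the TATA box. Defa21 lies at chr8:21025295-21025594 and Defa30 at chr8:21134400-21134699, both on the plus strand.

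Defa21: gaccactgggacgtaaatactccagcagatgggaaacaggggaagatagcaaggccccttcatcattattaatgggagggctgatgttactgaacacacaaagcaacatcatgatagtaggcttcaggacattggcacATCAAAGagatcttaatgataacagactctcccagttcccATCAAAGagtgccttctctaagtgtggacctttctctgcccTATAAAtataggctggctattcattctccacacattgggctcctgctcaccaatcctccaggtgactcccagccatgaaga
Defa30: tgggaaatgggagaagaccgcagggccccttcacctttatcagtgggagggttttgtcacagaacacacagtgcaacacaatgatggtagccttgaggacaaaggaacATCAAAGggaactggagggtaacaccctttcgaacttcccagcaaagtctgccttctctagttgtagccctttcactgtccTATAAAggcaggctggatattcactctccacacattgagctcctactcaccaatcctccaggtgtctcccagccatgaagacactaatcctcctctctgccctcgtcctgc

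CTTTGAT occurred in 7 of the 15 tested Paneth members with a promoter sequence (46.7%), against 4.29% of all genes with one, and TATAAA in 8 of them (53.3%, against 15.7%), on either strand in both cases. The letters of the 2 motifs did not overlap in the sequences shown. The promoters of Defa21 and Defa22 were identical over all 300 bases and those of Defa20 and Defa21 at 97.7% of positions, so the matches are not independent of each other. The promoters of Defa21 and Defa30 were 66.7% identical after alignment. Such a match is a description of the letters and shows no binding.

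Enteroendocrine cells are scattered sensors that release peptide hormones and serotonin in response to nutrients and microbial products. Hormone genes stood lower with the IgA -/- dam at day 24, again without passing the adjusted test of the dams at this age. Of 16 hormone genes 15 were in the table and 10 were tested, 9 of them through both groups. All 10 tested genes were lower in every IgA -/- dam library than in either B6 dam library, against 10.4% of all genes, and 8 had an unadjusted p under 0.05 (7.53% of all genes). Their median log2 fold change was -1.42. The 10 stayed lower without overlap on TPM as deposited, where 39.1% of all genes did so. They also did with factors over protein-coding genes (924 of 10514 genes in all). The same held with each of the 5 libraries left out, against 15.3% to 39.1% of all genes lower.

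Sct, secretin (chromosome 7, 141278330 to 141279133), was at 13.2, 14.34 and 12.5 scaled TPM in IgA -/- dam replicates 1, 2 and 3 and at 39.5 and 32.6 in B6 dam replicates 1 and 2. The IgA -/- dam libraries lay close together and well below both B6 dam libraries (log2 difference -1.37, SE 0.32, adjusted p = 0.195). Nts, neurotensin (chromosome 10, 102481756 to 102490486), was at 2.92, 12.4 and 3.75 against 22.2 and 28.0, a log2 difference of -2.04. Pyy, the satiety peptide of the distal gut (chromosome 11, 102106676 to 102107832), was at 1.04, 3.08 and 1.61 against 10.5 and 6.89. These Pyy levels rest on 7, 17 and 10 recovered reads against 164 and 71.

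Gip, the incretin of proximal K cells (chromosome 11, 96024545 to 96030831), was the most abundant hormone, at 104, 147 and 83.8 scaled TPM against 376 and 309. Sst, somatostatin, was at 73.9, 92.5 and 45.3 against 189 in each B6 dam library, and Gcg, the precursor of GLP-1, at 17.8, 26.8 and 19.5 against 79.3 and 46.2. Hormones typical of the upper gut (Gip, Sct, Cck and Ghrl) and of the lower gut (Pyy and Nts) both stood lower. Cck was at 9.09, 13.8 and 12.5 against 34.8 and 27.3. Ghrl, ghrelin, differed least among the abundant ones, at 19.1, 24.6 and 20.5 against 50.8 and 32.9.

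Genes for hormone granules, serotonin and enteroendocrine fate had a median nearer to 0 (-0.45), with 22 of 28 tested and 11 lower and 1 higher without overlap, against 10.4% and 5.58% of all genes. Without B6 dam replicate 2, 17 were lower and 2 higher, against 29.2% and 31.6% of all genes. Among the 18 that passed through both groups, 7 were lower and 1 higher without overlap, against 958 and 545 of 10158 such genes. Cpe, a carboxypeptidase that trims prohormones, was at 2.86, 5.73 and 3.04 scaled TPM against 13.4 and 10.4 (log2 difference -1.44). Scg2, a granin, was at 1.56, 2.91 and 1.74 against 8.91 and 5.50 (-1.41). The abundant granin Chga was not separated, at 62.6, 39.0 and 35.7 against 59.2 and 48.8 (-0.27), nor were the fate factors Neurog3 (5.41, 3.96 and 4.13 against 7.66 and 3.33) and Neurod1 (9.58, 3.22 and 4.10 against 6.80 and 4.40).

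The dam effect on the 10 hormone genes had the opposite sign at day 14, and the difference between the 2 ages was itself tested. In limma 25 of 10514 genes (0.238%) passed an adjusted p of 0.05 for the dam effect at day 24 minus that at day 14, 17 with a lower (0.162%) and 8 with a higher value at day 24 (0.0761%). Of the 17, 12 were enteroendocrine list members: the hormones Pyy, Sct, Nts, Gcg, Sst and Gip, the granins Chga, Chgb, Scg2 and Scg5, the prohormone convertase Pcsk1, and Tph1, which starts serotonin synthesis. The median log2 fold change of the 10 hormones was 1.83 at day 14, -1.42 at day 24 and 0.40 at day 42.

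At day 14 Sct stood at 40.4, 35.2 and 34.1 scaled TPM with the IgA -/- dam and at 4.79, 10.5 and 11.9 with the B6 dam. Its dam effect was 1.98 at day 14 and -1.37 at day 24, a difference of -3.34 (SE 0.43, adjusted p = 0.0133). In words, the B6 dam group held the low Sct values at day 14 and the IgA -/- dam group held them at day 24. Chga stood at 139, 129 and 141 with the IgA -/- dam at day 14 against 18.1, 23.5 and 20.7 with the B6 dam, so that its difference of -2.94 (SE 0.43, adjusted p = 0.0221) came from a wide gap at day 14 and overlapping groups at day 24. At day 42 Chga was at 92.0, 90.3 and 65.5 against 30.8, 60.2 and 79.4, and the groups overlapped.

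Nts had the largest of these differences, -4.64 (SE 0.70, adjusted p = 0.0221), followed among the hormones by Gip at -4.11 (adjusted p = 0.0424) and Pyy at -3.90 (0.0133). Chgb, Gcg, Scg2 and Sst lay between -3.45 and -2.98, and Tph1, Pcsk1 and Scg5 between -2.10 and -1.77. The count of 25 depended on single libraries and on the model. It was 1 without B6 dam day 24 replicate 1, 6 without IgA -/- dam day 24 replicate 3, 144 without IgA -/- dam day 24 replicate 1, 0 with library weights and 10 with limma-voom. The number strings that read as dates also differ between the dams at day 14, so at neither age can they be told apart from the dam.

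**Figure D3:**
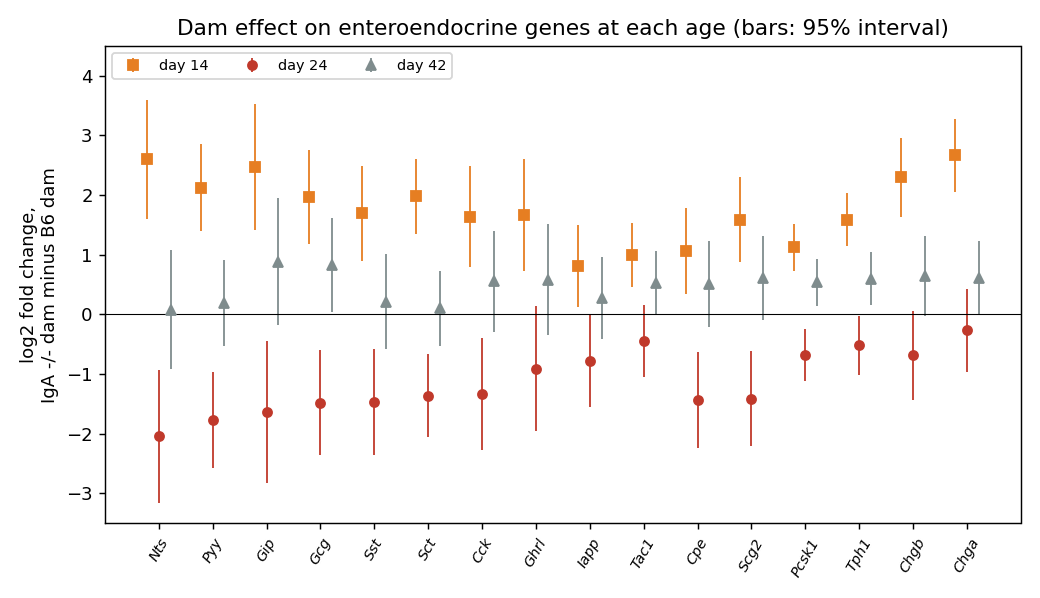
Log2 fold change between the dams (IgA -/- dam minus B6 dam) for 16 enteroendocrine genes at days 14, 24 and 42, with 95% intervals from limma. All 16 lie above 0 at day 14 and below 0 at day 24, and the day 42 values lie between 0.08 (Nts) and 0.88 (Gip).

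The promoters of Sst and Chgb are shown because both genes were called in the difference between ages and both hold TGACGTCA, the cAMP response element, which reads the same on both strands. Sst lies on the minus strand at chr16:23890795-23891094 and Chgb on the plus strand at chr2:132781392-132781691 (RefSeq, GRCm38.p6), with the element in capitals.

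Sst: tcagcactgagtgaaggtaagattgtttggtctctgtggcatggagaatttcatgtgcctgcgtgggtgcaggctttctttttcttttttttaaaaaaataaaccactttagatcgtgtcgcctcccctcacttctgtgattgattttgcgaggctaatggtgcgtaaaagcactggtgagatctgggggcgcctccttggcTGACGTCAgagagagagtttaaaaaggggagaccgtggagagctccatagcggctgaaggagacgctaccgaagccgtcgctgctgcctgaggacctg
Chgb: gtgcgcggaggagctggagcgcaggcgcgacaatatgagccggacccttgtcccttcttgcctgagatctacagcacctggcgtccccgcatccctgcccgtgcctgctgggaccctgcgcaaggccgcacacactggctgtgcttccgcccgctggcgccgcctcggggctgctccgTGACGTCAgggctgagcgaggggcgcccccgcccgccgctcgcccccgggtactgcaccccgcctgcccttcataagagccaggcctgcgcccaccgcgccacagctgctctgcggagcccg

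The element occurred in 1 of 10 tested hormone genes and in 3 of 16 granule, serotonin and fate genes with a promoter (Chgb, Pcsk1 and Scg2), against 2.03% of all genes. The E-box CAGATG, on either strand, occurred in 6 of the 10 hormone genes (Cck, Gcg, Ghrl, Iapp, Sct and Tac1), against 19.2% of all genes, and in 1 of the 16.

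Among the remaining genes called in the difference between ages, Reg3b, an antimicrobial lectin (chromosome 6, 78370657 to 78373466), differed by -4.44 (SE 0.83, adjusted p = 0.0482). At day 24 it was abundant in every library, at 1535, 1972 and 1858 scaled TPM with the IgA -/- dam and 1840.4 and 4651 with the B6 dam, and the groups overlapped. Its dam effect was 3.72 at day 14. Reg3b was called in 5 of 15 alternative settings, and limma-voom gave an adjusted p of 0.084. Fkbp5, a glucocorticoid-induced chaperone (chromosome 17, 28399094 to 28517527), was at 1.23, 0.826 and 0.879 against 4.14 and 2.27 at day 24. Its day 24 effect of -1.06 (adjusted p = 0.0988) differed from that at day 14 by -1.34 (adjusted p = 0.0338). It passed the filter through the B6 dam group alone. It was the 1 of 12 tested glucocorticoid targets whose groups did not overlap, against 10.4% of all genes lower. Of the 10 targets that passed through both groups, 0 were without overlap.

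Lbh, a transcription cofactor (chromosome 17, 72918305 to 72941947), was among those with a higher dam effect at day 24, at 9.73, 12.7 and 9.77 scaled TPM against 6.02 and 3.89 (log2 difference 0.99, day 24 minus day 14 2.03, adjusted p = 0.0224). St3gal3, a sialyltransferase, was at 2.80, 3.80 and 3.34 against 2.13 and 1.42, and its difference between ages was 1.31. Afp and Fut8 were called lower (-2.38 and -0.73) and St5 higher (0.69). Afp encodes the fetal serum protein alpha-fetoprotein and Fut8 the core fucosyltransferase. The remaining 6 genes were mt-Rnr2 and 5 predicted genes, namely Gm10800, Gm10801, Gm13340, Gm22614 and Gm25482. The dam effect at day 24 minus that at day 42 passed for 0 genes in limma (838 at an unadjusted p under 0.05, smallest adjusted p 0.118) and for 0 in limma-voom.

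Mitochondrially encoded transcripts stood higher with the IgA -/- dam, while no nuclear gene of electron transport was higher without overlap. All 13 were tested, and 12 were higher without overlap, against 5.58% of all genes (median log2 fold change 1.03, against -0.97 at day 14). With 1 library left out, 12 to 13 were higher, against 8.33% to 31.6% of all genes. The medians ran from 0.70 (without B6 dam replicate 1) to 1.30 (without B6 dam replicate 2). mt-Cytb, the cytochrome b of complex III, was at 6599.8, 8909.7 and 10080 scaled TPM against 3284 and 4325.5 (log2 difference 1.16, adjusted p = 0.281). On TPM as deposited the median of the 13 was 0.46, and 11 were higher without overlap (1.06% of all genes). The 16S ribosomal RNA mt-Rnr2 had a log2 difference of 1.20 at day 24 and -1.04 at day 14. This change of 2.24 was called in limma (adjusted p = 0.0464). It was called in 5 of 15 alternative settings, and limma-voom gave an adjusted p of 0.063. Mitochondrial ribosomal RNA took 29.4% to 31.2% of TPM with the IgA -/- dam and 21.1% and 20.7% with the B6 dam. Of 45 nuclear electron transport genes, 12 were lower without overlap, against 10.4% of all genes (median -0.18), among them Uqcrb of complex III, at 43.1, 42.6 and 41.7 against 53.0 and 78.5. That count changed with the library left out, as did the share of all genes. It was 33 without B6 dam replicate 1 (39.1% of all genes lower) and 21 without IgA -/- dam replicate 2 (18.8%). Without B6 dam replicate 2, 12 were lower and 10 higher, against 29.2% and 31.6% of all genes.

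Small nuclear and nucleolar RNAs were also prominent among the genes with the smallest p. The 15 named genes that stood higher included Rnu3a and Rnu3b1, the U3 RNAs of ribosomal RNA processing, the H/ACA RNAs Snora21, Snora23 and Snora31, which guide pseudouridylation, and the vault RNA Vaultrc5. Rnu3a was at 466, 540 and 629 scaled TPM against 128 and 204 (log2 difference 1.73, adjusted p = 0.127). Snora21 was at 205, 203 and 281 against 87.4 and 117 (1.16), and Snora23 at 101, 52.8 and 79.1 against 25.5 and 36.3 (1.27). Of the 173 tested small nucleolar RNAs, a group chosen after values were seen, 44 were higher and 10 lower without overlap (5.58% and 10.4% of all genes). Of the 160 that passed through both groups, 42 were higher and 4 lower, against 545 and 958 of 10158 such genes. The median of the 173 was 0.48. On TPM as deposited that median was -0.0030, and 18 were higher and 25 lower (1.06% and 39.1% of all genes). With 1 library left out, 47 to 78 were higher and 14 to 23 lower. The largest numbers higher were 78 without B6 dam replicate 2 (31.6% of all genes) and 76 without IgA -/- dam replicate 1 (8.33%). Many of these RNAs lie within host genes and the kit does not mark strand, so reads of the host cannot be told apart from theirs. The Snora21 and Snora23 sequences (GENCODE M21, GRCm38) are shown with the ACA box that defines the class in capitals near the 3′ end. Snora21 lies on the minus strand at chr11:97781639-97781775 and Snora23 on the plus strand at chr7:110046364-110046547.

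Snora21: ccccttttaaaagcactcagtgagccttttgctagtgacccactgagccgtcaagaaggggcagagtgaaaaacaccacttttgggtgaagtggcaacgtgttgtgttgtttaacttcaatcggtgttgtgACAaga
Snora23: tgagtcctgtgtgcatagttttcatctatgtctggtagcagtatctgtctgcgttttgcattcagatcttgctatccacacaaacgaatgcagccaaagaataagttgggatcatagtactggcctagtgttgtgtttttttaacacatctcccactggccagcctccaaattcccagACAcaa

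Among the 15 named genes that stood lower, 5 were proteasome subunits. Psmb4, a subunit of the core particle (chromosome 3, 94884093 to 94886961), was at 16.5, 19.7 and 17.9 scaled TPM against 24.38 and 26.98 (log2 difference -0.49, adjusted p = 0.191). Psmb7, a catalytic subunit, was at 5.41, 8.05 and 6.51 against 10.9 and 9.93 (-0.59), and Psmd6, Psma3 and Psmc2 differed by -0.41, -0.35 and -0.42. These differences were small, and both B6 dam libraries lay above all 3 others in each. Of 37 tested subunits, a group chosen after values were seen, 23 were lower and 0 higher without overlap (10.4% and 5.58% of all genes), with a median of -0.29. Of the 36 that passed through both groups, 22 were lower, against 958 of 10158 such genes. With 1 library left out, 23 to 29 of the 37 were lower, against 15.3% to 39.1% of all genes. Calu, a calcium-binding protein of the secretory pathway, was at 11.9, 14.8 and 13.5 against 19.5 and 25.0 (-0.68, adjusted p = 0.127). Hsd17b12, which elongates fatty acids, was at 20.8, 22.7 and 20.2 against 30.6 and 33.1 (-0.56). Spcs1, of the signal peptidase, and Hspa5, the main chaperone of the endoplasmic reticulum, were lower as well (-0.55 and -0.37). Of 25 genes of the unfolded protein response, 6 were lower without overlap, against 10.4% of all genes. That number was 15 without B6 dam replicate 1 (39.1% of all genes). It was 12 without IgA -/- dam replicate 2 (18.8%) and 11 without IgA -/- dam replicate 1 (15.3%). Without IgA -/- dam replicate 3 it stayed at 6 (15.7%). Without B6 dam replicate 2, 7 were lower and 4 higher, against 29.2% and 31.6% of all genes.

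Car4, a membrane carbonic anhydrase of enterocytes (chromosome 11, 84957786 to 84966044), was at 7.17, 7.55 and 6.36 scaled TPM against 12.1 and 20.6 (-1.07, adjusted p = 0.127). Krcc1 and Naa38 differed by -0.50 and -0.51, and Myl7, a myosin light chain, by -1.05. Fryl, Tns3 and Akap8l completed the higher group, with differences of 0.42, 0.38 and 0.47 that changed sign on TPM as deposited (-0.12, -0.15 and -0.06).

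Clock genes as a list did not overlap about as often as all genes. In the mammalian clock Arntl drives transcription and the REV-ERB proteins Nr1d1 and Nr1d2 repress it, and Nfil3 is a rhythmic repressor that REV-ERB also holds down. Nr1d2 (chromosome 14, 18204054 to 18239127) was at 1.69, 1.63 and 1.88 scaled TPM against 3.29 and 5.47 (log2 difference -0.95, SE 0.18, adjusted p = 0.127). Nfil3 (chromosome 13, 52967209 to 52981073) was at 10.1, 7.67 and 7.78 against 4.55 and 2.51 (1.10, SE 0.21, adjusted p = 0.127). Arntl (chromosome 7, 113207465 to 113314126) was at 6.23, 5.37 and 4.65 against 3.30 and 3.23 (0.58, SE 0.12, adjusted p = 0.127). Of the 19 tested clock genes 2 were higher and 1 lower without overlap, against 5.58% and 10.4% of all genes, and the median of the list was -0.0069. Without B6 dam replicate 1, 4 were higher and 8 lower, against 19.7% and 39.1% of all genes. Without B6 dam replicate 2, 10 were higher and 5 lower, against 31.6% and 29.2%. The number lower was 4 without IgA -/- dam replicate 2 and 2 without replicate 3 (18.8% and 15.7% of all genes). Nr1d1 overlapped, at 2.76, 3.82 and 3.37 against 3.72 and 14.9. The labels used here give no time of day for the collections, so its part in these values was not tested.

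Arntl and Nfil3 are shown because both hold TAGGTCA, the core of the element to which REV-ERB and ROR proteins bind. Arntl lies on the plus strand at chr7:113207261-113207560 and Nfil3 on the minus strand at chr13:52980990-52981289 (RefSeq, GRCm38.p6). Capitals mark the element on either strand.

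Arntl: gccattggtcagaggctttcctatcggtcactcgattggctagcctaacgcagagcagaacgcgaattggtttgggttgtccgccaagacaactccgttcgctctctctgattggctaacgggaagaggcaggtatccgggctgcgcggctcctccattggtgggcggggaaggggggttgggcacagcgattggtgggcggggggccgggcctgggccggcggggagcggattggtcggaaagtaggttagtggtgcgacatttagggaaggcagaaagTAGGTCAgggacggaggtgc
Nfil3: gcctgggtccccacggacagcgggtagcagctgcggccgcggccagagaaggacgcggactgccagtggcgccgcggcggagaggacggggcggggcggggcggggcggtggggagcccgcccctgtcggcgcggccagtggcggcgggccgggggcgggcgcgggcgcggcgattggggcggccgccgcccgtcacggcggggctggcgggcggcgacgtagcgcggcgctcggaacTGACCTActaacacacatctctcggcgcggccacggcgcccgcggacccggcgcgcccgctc

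The element occurred in 2 of 13 tested clock genes with a promoter, Arntl and Nfil3, against 2.97% of all genes. The E-box CACGTG, which reads the same on both strands, occurred in 2 of the 13, Cry1 and Per1, against 8.09% of all genes.

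**Figure D4:**
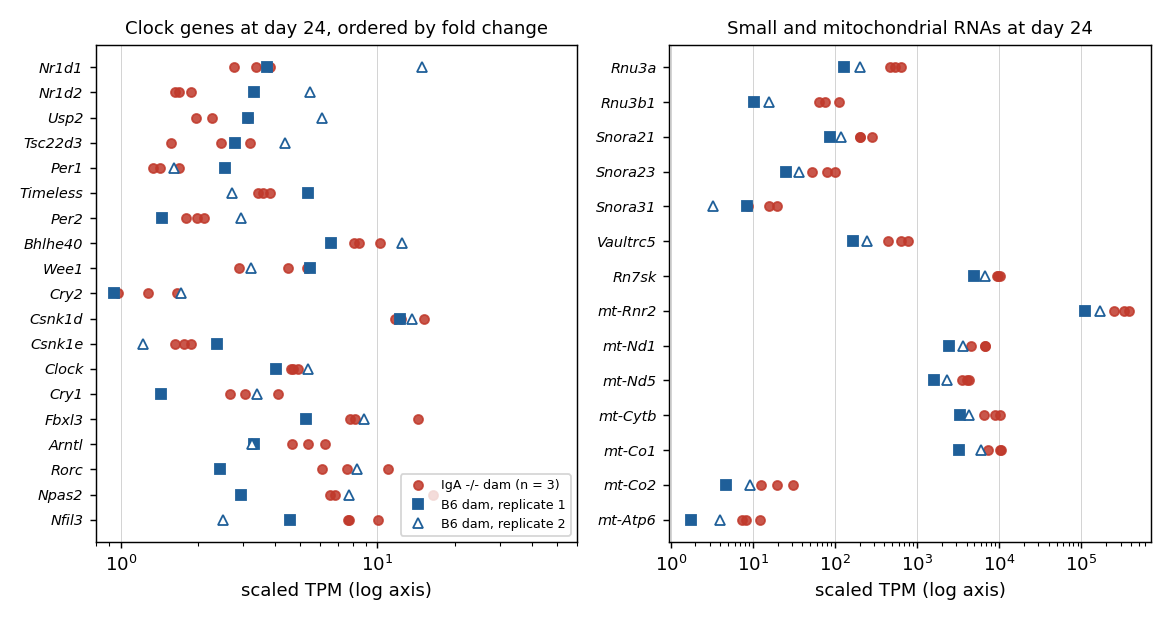
Scaled TPM (log axis) in each day 24 library of 19 clock genes, ordered by fold change, and of 14 small and mitochondrial RNAs. Nr1d2, Nfil3 and Arntl are the clock genes whose red and blue points separate, and in the panel of small and mitochondrial RNAs the red points lie to the right in every gene shown.

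Enterocyte genes did not separate the dams, and the 2 B6 dam libraries lay on opposite sides of the IgA -/- dam libraries. In all 24 tested adult enterocyte genes, B6 dam replicate 1 was below and B6 dam replicate 2 above all 3 IgA -/- dam libraries, a pattern found in 17.9% of all genes. Sis, the sucrase-isomaltase of the brush border, was at 122, 137 and 86.2 scaled TPM with the IgA -/- dam and at 42.5 and 363 with the B6 dam. Lct, lactase, which marks the suckling period, had the same order, at 68.8, 62.5 and 53.3 against 5.99 and 174. Apoa4, a chylomicron apolipoprotein, was at 788, 390 and 370 against 80.3 and 1859. The median log2 ratio of B6 dam replicate 2 to replicate 1 over the 24 genes was 3.36. Their median dam effect of -0.05 became -1.64 without B6 dam replicate 1 and 1.51 without B6 dam replicate 2.

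The same order held for 18 of 18 peptide digestion genes, 17 of 22 fat absorption genes, 18 of 25 interferon-stimulated genes and 14 of 16 MHC class I genes. Crypt genes ran the other way, with 13 of 22 stem cell genes highest in B6 dam replicate 1 and lowest in B6 dam replicate 2 (6.31% of all genes). Olfm4, a stem cell marker, was at 479, 545 and 560 against 832 and 409. No adult enterocyte or stem cell gene was free of overlap. All 10 hormone genes were lower and 21 of 23 Paneth genes higher without overlap (10.4% and 5.58% of all genes). The part of the gap between the 2 B6 dam libraries in those values was not tested.

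**Figure D5:**
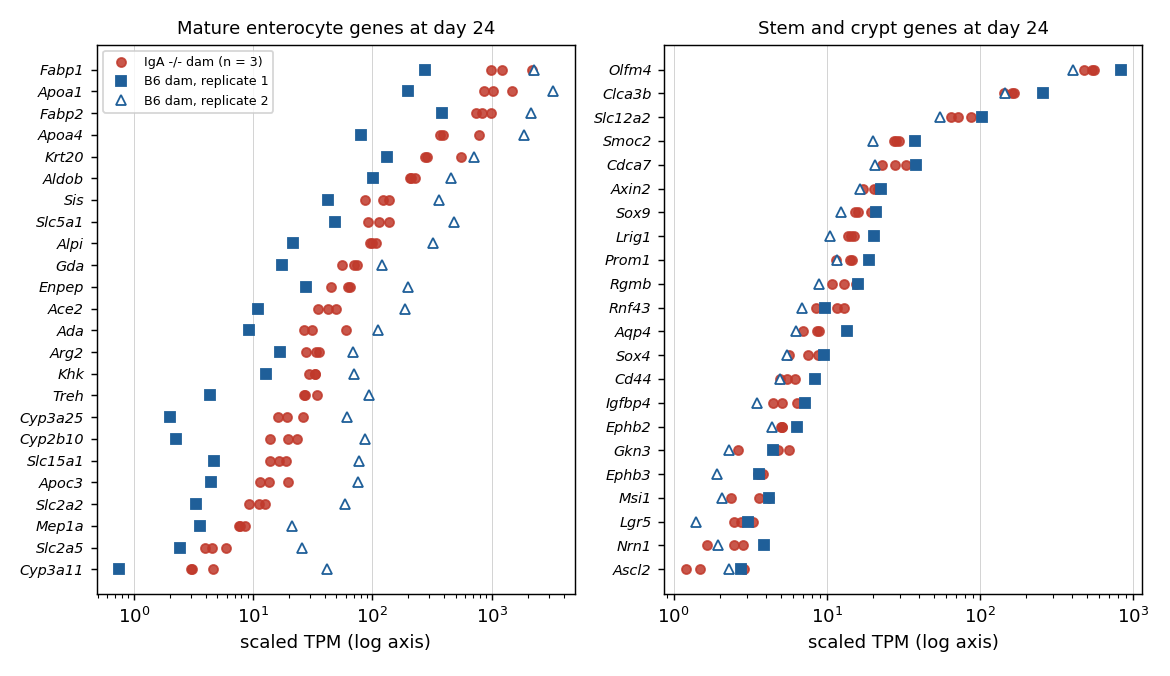
Scaled TPM (log axis) in each day 24 library of 24 mature enterocyte genes and 22 stem and crypt genes, with red points for the IgA -/- dam, blue squares for B6 dam replicate 1 and open triangles for B6 dam replicate 2. The square lies left and the triangle right of the red points in all 24 enterocyte genes, as in Sis at 42.5 and 363, and the order is turned in 13 stem and crypt genes.

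Goblet cells secrete mucus. Of 22 tested genes 4 were higher without overlap, against 5.58% of all genes (median 0.41). The number was 16 without IgA -/- dam replicate 3 (9.23% of all genes). It was 13 without B6 dam replicate 2 (31.6%) and 7 without B6 dam replicate 1 (19.7%). On TPM as deposited the median was -0.07 and none was separated. Fcgbp, a mucus protein, was at 351, 441 and 270 scaled TPM against 153 and 240 (log2 difference 0.85, adjusted p = 0.324), and Muc2, the gel-forming mucin, overlapped at 266, 337 and 160 against 97.7 and 171. At day 14 the goblet median was 1.21. Of 16 tested tuft cell genes 4 were lower and 1 higher without overlap, against 10.4% and 5.58% of all genes (median -0.17). Among the 14 that passed through both groups, 4 were lower and 0 higher, against 958 and 545 of 10158 such genes. Lower genes numbered 8 without IgA -/- dam replicate 2 (18.8% of all genes). They numbered 6 without replicate 1 of the IgA -/- dam (15.3%) or of the B6 dam (39.1%). Without B6 dam replicate 2 there were 4 higher and 5 lower (31.6% and 29.2%).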

How the data were processed

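Small intestinal EpCAM+ cells of 17 pup libraries were measured by SMART-seq. The authors deposited TPM values for 53278 gene symbols, and per the submitters' processing notes Bowtie2, Subread, DESeq2 and mm10 were used, with versions and roles not given in the sources used here. Whole reads were recovered from TPM and GENCODE M21 exon lengths (tolerance 0.01 reads or 1e-04 relative; 47578 of 49612 symbols whole in every library) for depth and limma-voom. Reads are PCR products without molecular identifiers, so depth overstates the independent molecules.

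Deposited TPM was divided by median-of-ratios factors over 16088 genes. Genes with TPM of at least 1 in at least 2 of the 5 day 24 libraries (10514) were fitted as log2(scaled TPM + 1), with a pseudocount of 1, in 1 limma 3.58.1 model over all groups (R 4.3.3), with trend and Benjamini-Hochberg adjustment at 0.05. Fold changes on this scale understate low genes. The 1 fit shares its estimate of spread across groups. Sequences, motifs and figures used Python 3.11.15, numpy 2.4.6, pandas 2.3.3, biopython 1.88 and matplotlib 3.10.9. Replicate numbers were checked for pairing, which the 2 B6 dam libraries of day 24 could not settle.

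Members and gene lists were chosen with earlier results of these data known, so they carry no test of their own. The text names the 15 genes of smallest p in each direction without overlap, if the higher group averaged at least 10 scaled TPM, then at most 6 members per list by smallest p, check genes and genes called between ages. Other genes were named after their values were seen. Alternatives covered scaling, pseudocount, filter, moderation, library weights, the replicate block, limma-voom and each library left out.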

Additional observations from a re-analysis of the deposited data

Results flagged for a closer look

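The dam effect differed between day 24 and day 14 in 25 genes by a test of the difference itself (limma, adjusted p under 0.05), and each value below is the log2 dam effect at day 24 minus that at day 14. Among hormones it was -4.64 for Nts, -4.11 for Gip, -3.90 for Pyy, -3.45 for Gcg, -3.34 for Sct and -3.16 for Sst. For granule and serotonin genes it was -3.00 for Scg2, -2.98 for Chgb, -2.94 for Chga, -2.10 for Tph1, -1.81 for Pcsk1 and -1.77 for Scg5. The other lower values were -4.44 for Reg3b, -2.83 for Gm25482, -2.38 for Afp, -1.34 for Fkbp5 and -0.73 for Fut8. Higher values were 4.15 for Gm10800, 3.67 for Gm10801, 2.54 for Gm22614, 2.24 for mt-Rnr2, 2.03 for Lbh, 1.84 for Gm13340, 1.31 for St3gal3 and 0.69 for St5. These calls were not equally stable. Sct was called in 13 of 16 alternative settings and Pyy in 12 of 15, against 6 of 16 for Gip. Reg3b and Afp were called in 5 of 15 each, Fut8 in 4 of 16 and Scg5 in 3 of 15. The number strings in the descriptions that read as dates differ between the dams at both ages. Their part in these values cannot be told apart from that of the dam.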

How the results depend on the processing

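The count of genes called at day 24, 0 with scaling, was 522 on TPM as deposited, 2 without mitochondrial and the 50 highest genes and 24 with no filter on low values. It was 1 to 28 with 1 library left out, and 24 with replicate 1 of both dams left out (chosen after seeing the data). On TPM as deposited, leaving out 1 library gave 2 to 4889 (IgA -/- dam replicates 1, 2 and 3 out: 3567, 4 and 2; B6 dam replicates 1 and 2 out: 11 and 4889). The other settings run, including quantile normalisation, limma-voom and the replicate block, gave 0.

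The count for day 24 minus day 14, 25, was 5254 on TPM as deposited, 15 with quantile normalisation, 9 without mitochondrial and the 50 highest genes, 40 with no filter, 14 with a filter of TPM 5, 0 with library weights and 10 with limma-voom, and 1 to 144 with 1 library left out. The count for day 24 minus day 42 was 11 with no filter and 0 to 1 with 1 library left out. With the replicate block the count for day 24 minus day 14 was 0. Same-numbered day 24 libraries correlated at -0.105 and -0.0199 in their deviations from the group means. With only 2 B6 dam libraries these deviations mirror each other, so the values cannot show whether the numbers pair libraries. The cause of these changes was not tested.

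The sign of the dam effect was turned on TPM as deposited for Fryl (-0.12), Tns3 (-0.15), Akap8l (-0.064), St5 (-0.093, and -0.25 for its difference between ages), Dnajb1 (-0.014), Mlxipl (-0.35), Nfkbiz (-0.088) and Tjp3 (-0.47), and with quantile normalisation for Rn7sk (-0.26).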

Other observations

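Of 14 tested heat shock chaperone genes at day 24, 3 were higher and 3 lower without overlap (median log2 fold change -0.07). Over all genes 5.58% were higher and 10.4% lower. Without B6 dam replicate 1 the list counts were 5 and 4 (19.7% and 39.1% of all genes). Without B6 dam replicate 2 they were 3 and 7 (31.6% and 29.2%). Hspa1b, an inducible HSP70 (chromosome 17, 34956436 to 34959238, GRCm38), was at 11.2, 8.60 and 9.11 scaled TPM with the IgA -/- dam and at 3.36 and 2.42 with the B6 dam (log2 difference 1.45, SE 0.33, adjusted p = 0.19 in limma). Its neighbour Hspa1a, a near-identical copy whose reads are hard to tell apart, was at 3.46, 2.54 and 2.78 against 1.28 and 0.475. All 3 IgA -/- dam libraries were the higher ones in both genes. Of 13 tested immediate early genes, which respond within minutes to stimuli and to tissue handling, 4 were higher without overlap (median 0.37, and -0.15 on TPM as deposited), among them Jun at 37.7, 30.7 and 32.8 against 18.3 and 25.1. Without B6 dam replicate 2, 11 were higher and 1 lower (31.6% and 29.2% of all genes). Without B6 dam replicate 1, 5 were higher and 6 lower (19.7% and 39.1%). Without IgA -/- dam replicate 3, 6 were higher (9.23%).

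Of 32 tested cell cycle genes 5 were lower and 0 higher without overlap (median -0.22). Among the 31 that passed through both groups, 4 were lower. Lower genes numbered 22 without B6 dam replicate 2 (29.2% of all genes) and 16 without IgA -/- dam replicate 2 (18.8%). Without B6 dam replicate 1 there were 8 higher and 5 lower (19.7% and 39.1%). Mcm4, a subunit of the replicative helicase, was at 7.65, 11.3 and 11.4 scaled TPM against 21.8 and 11.6, so B6 dam replicate 1 stood apart from the rest. Of 25 tested cholesterol synthesis genes 5 were lower and 0 higher without overlap (median -0.18). Among the 23 that passed through both groups, 4 were lower. The number lower was 14 without B6 dam replicate 1 (39.1% of all genes) and 13 without IgA -/- dam replicate 2 (18.8%). Without B6 dam replicate 2, 7 were lower and 4 higher (29.2% and 31.6%). The counts with every library kept lie beside 10.4% of all genes lower and 5.58% higher without overlap. Of the 10158 genes that passed through both groups, 958 were lower.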
